A study of Mus musculus with 20 samples.

Results

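H3K27me3, the histone mark laid down by Polycomb repressive complex 2, was compared between the wild-type medial ganglionic eminence (MGE) and the MGE of Nkx2-1 mutant embryos at embryonic day 13.5. The members are the regions in the H3K27me3 peak list of each genotype, 2 of the 20 libraries of the series. Rows of a list with the same chromosome, start and end were merged into 1 region, and chromosomes 1 to 19 were kept. This gave 20931 regions covering 25.4 Mb in wild type and 27229 regions covering 33.1 Mb in the mutant, of 463530 regions in the 10 peak lists of the series. Both groups were C57BL/6 embryos, and the MGE, the ventral forebrain territory that generates cortical interneurons and striatal and cholinergic neurons, was micro-dissected. The mutant carries a conditional knockout of Nkx2-1 (Nkx2-1cKO in the labels). The driver of the conditional deletion and the number of embryos pooled are not given in the sources used here. Each genotype has 1 H3K27me3 library, so no difference between genotypes has a replicate error or a test, and every value describes these 2 libraries. The libraries held 50.2 M tags (M, mega) in wild type and 46.7 M in the mutant after removal of duplicates, so the longer list came from the library with fewer tags. In bulk tissue, fewer cells that carry a mark and less of the mark per cell cannot be told apart.

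Polycomb repressive complex 2 trimethylates lysine 27 of histone H3 at genes that are silent in a lineage, and Polycomb repressive complex 1 binds the mark. Acetylation of the same lysine, H3K27ac, marks active promoters and enhancers, and a single histone tail cannot carry both. In the embryonic forebrain, H3K27me3 lies over developmental regulators of other regions and lineages, often at promoters that also carry H3K4me3. NKX2-1 is the homeodomain factor that specifies the MGE, and Lhx6 and Lhx8, which encode LIM homeodomain factors of its interneurons and cholinergic neurons, are known to need it.

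The sequences below show the sites on which the gene results turn, in build mm9 (NCBIM37), with each CpG in capitals, since CpG-rich DNA is known to recruit Polycomb. The Gli2 stretch (chr1:120950197-120950396, minus strand) lies just upstream of the gene. H3K27ac covered 52 of its 200 bases in wild type and all 200 in the mutant, and H3K27me3 covered 21 and 0 bases.
Gli2 upstream: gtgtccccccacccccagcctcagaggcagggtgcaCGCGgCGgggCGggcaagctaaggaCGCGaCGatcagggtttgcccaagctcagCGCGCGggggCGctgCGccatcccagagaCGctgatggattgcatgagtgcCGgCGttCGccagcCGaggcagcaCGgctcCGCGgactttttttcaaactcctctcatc
Upstream of Lhx6 (chr2:35960929-35961128, minus strand), H3K27me3 covered all 200 bases in both genotypes, H3K27ac covered 200 bases in wild type against 0 in the mutant, and an NKX2-1 peak covered 112.
Lhx6 upstream: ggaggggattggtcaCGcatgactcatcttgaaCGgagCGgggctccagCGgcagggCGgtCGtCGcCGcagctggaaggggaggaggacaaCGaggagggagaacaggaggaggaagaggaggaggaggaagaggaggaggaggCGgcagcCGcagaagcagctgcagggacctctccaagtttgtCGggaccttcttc
The next stretch (chr1:120941689-120941888, plus strand) is the summit of a region inside Gli2 that was found in wild type alone. It holds 1 CpG, against 20 upstream of the gene.
Gli2 lost summit: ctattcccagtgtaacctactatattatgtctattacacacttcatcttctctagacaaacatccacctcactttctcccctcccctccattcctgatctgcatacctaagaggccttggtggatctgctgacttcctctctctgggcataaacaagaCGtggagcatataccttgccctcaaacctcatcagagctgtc
The last stretch (chr10:12834153-12834352, plus strand) is the summit of a region at a Plagl1 transcription start site (TSS) that was found in the mutant alone. H3K27ac covered all 200 bases in wild type against 0 in the mutant.
Plagl1 gained summit: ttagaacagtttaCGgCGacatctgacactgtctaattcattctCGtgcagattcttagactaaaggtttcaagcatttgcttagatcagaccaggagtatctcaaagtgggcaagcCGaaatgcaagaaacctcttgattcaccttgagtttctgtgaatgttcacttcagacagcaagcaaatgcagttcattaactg
These sites represent the kinds of change described for genes further on: less H3K27me3 with more acetylation (Gli2), more H3K27me3 (Plagl1), and lost acetylation under H3K27me3 that was already there (Lhx6).

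The targeted gene was checked first. The last exon of Nkx2-1 (chr12:57632922-57634767) was covered to 78.4% by H3K27me3, 95.3% by H3K27ac and 100% by H3K4me3 in wild type, and to 0% by each in the mutant. Its 5' part kept the marks, with H3K27ac over 7.44 kb within 5 kb of the TSS in the mutant. H3K27ac lay near a TSS of 31 of 34 MGE transcription factor genes in wild type and of 30 in the mutant, with sums of 216 and 194 kb.

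The next question is how much of the H3K27me3 landscape differed between the genotypes. Regions covered by both lists held 22.8 Mb, which is 89.8% of wild-type bases and 68.8% of mutant bases. Of the wild-type regions, 3299 (15.8%, exact 95% interval 15.3% to 16.3%) overlapped no mutant region by even 1 base, and these are called lost. They held 1.46 Mb, or 5.74% of the wild-type bases. Of the mutant regions, 12463 (45.8%, 45.2% to 46.4%) overlapped no wild-type region, and these are called gained. They held 5.75 Mb, or 17.4% of the mutant bases. The mutant covered 1.31 times as many bases as wild type, and more on all 19 chromosomes, from 1.16 times on chromosome 11 to 1.502 times on chromosome 10.

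Regions without a counterpart were mostly weak, but the larger extent in the mutant was not confined to weak regions. With a −log10 p (the peak caller's score) of at least 10, the mutant still covered 1.30 times as many bases as wild type. Among regions with a −log10 p of 5 to 8, 31.1% of the wild-type regions were lost and 77.2% of the mutant regions were gained. At 15 to 20 the shares were 6.27% and 21.4%. At 30 and over, 6 of 3352 wild-type regions (0.179%) were lost and 18 of 4381 mutant regions (0.411%) were gained. In every range of strength the gained share exceeded the lost share in the full lists, of which the mutant list is the longer. Regions of 1 library are not replicates of a genotype. Over all regions the order reversed when the mutant list was cut to the wild-type covered bases (38.8% lost and 12.5% gained).

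**Figure D1:**
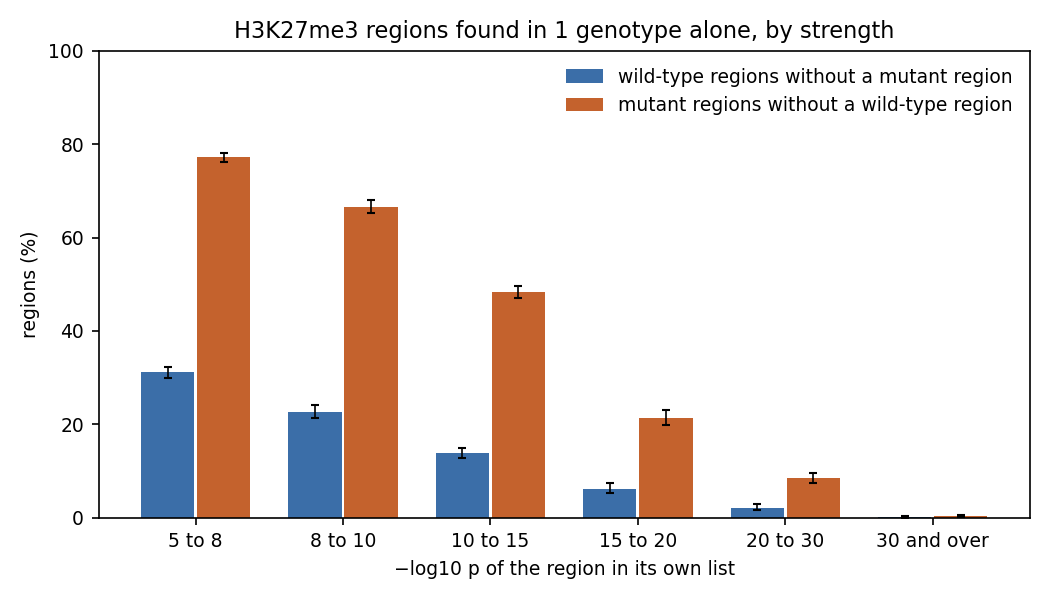
Share of H3K27me3 regions without any overlap in the other genotype (y axis, percent) by the strength of the region in its own list (x axis, −log10 p), with exact 95% intervals that cover counting error only. The shares drop from 31.1% (wild type) and 77.2% (mutant) in the weakest range to 0.179% and 0.411% in the strongest.

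Since the lists differ in length, both were also compared at the same number of covered bases. When the mutant list was cut by −log10 p to the 25.4 Mb of wild type, 10837 mutant regions were left, with a fold enrichment of at least 4.56 against at least 2.73 in the uncut wild-type list. The lists then shared 81.8% of their bases, 38.8% of wild-type regions were lost and 12.5% of mutant regions were gained. When both lists were cut to their strongest 12.7 Mb (3091 and 2336 regions), they shared 86.5% of their bases, and 21.7% and 7.41% of the regions lacked a counterpart. Almost all of the strongest 5 Mb of each list lay within the other full list, 99.6% for wild type and 97.7% for the mutant. With both lists cut to 5 Mb they shared 86.1% of their bases. Which genotype had more unmatched regions thus depended on the cut, and the strongest regions of a list nearly all lay within the other full list, though not among its strongest regions.

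Long Polycomb domains were kept. Regions separated by gaps of up to 3 kb were joined into 8349 wild-type and 10839 mutant domains with median lengths of 2012 and 2014 bases. Domains of at least 20 kb numbered 253 and 310, and domains of at least 50 kb numbered 20 and 29. Of the 253 long wild-type domains 2 had no mutant counterpart, and of the 310 long mutant domains 1 had no wild-type counterpart. Below 2 kb the shares without a counterpart were 21.7% and 58.5%. The longest domain in both genotypes was the Hoxc cluster, at 177 kb in each. The Hoxa cluster spanned 137 kb in both, Hoxd with Evx2 131 kb in both, and Hoxb 137 kb in wild type against 149 kb in the mutant. Hox genes set position along the body axis and are silent in the forebrain. The domain over Pax3, a dorsal neural tube factor, was 114 kb long in wild type and held 94.99 kb of H3K27me3 there and 103 kb in the mutant. The domain over Alpk1 was 87.5 kb long in wild type. In the mutant it was joined with that of the neighbouring Neurog2, a proneural factor of the pallium, into 147 kb, within which H3K27me3 covered 108 kb in wild type against 131 kb in the mutant. Such joins were more frequent in the longer list: 288 mutant domains overlapped at least 2 wild-type domains, and 80 wild-type domains overlapped at least 2 mutant domains.

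Most lost and gained regions lay away from promoters. Promoters (within 1 kb of a TSS of a protein-coding gene) held 7.27% of lost and 10.7% of gained regions, and 31.5% of the wild-type regions that were kept. Between genes lay 53.2%, 54.1% and 39.8% in the same order. Gained regions lay at a median of 3.35 kb from the nearest wild-type region, and 48.5% lay within 3 kb of one. Lost regions lay at a median of 2.39 kb from the nearest mutant region. In the 300 bases at the summit, 1.61% of lost, 2.05% of gained and 6.02% of kept wild-type regions were CpG-rich (GC of at least 50% and an observed to expected CpG ratio of at least 0.6), against 48.7% of all TSSs. In windows 10 kb to the right of these summits the shares were 1.70%, 1.49% and 2.23%, so lost summits were near their surroundings. H3K4me3, the promoter mark, overlapped 44.7% of kept regions in wild type, 11.5% of lost and 16.8% of gained ones. NKX2-1 peaks, from wild-type CD-1 basal ganglia of the same age, overlapped 1.58% of lost, 2.37% of kept and 0.891% of gained regions. Of the kept mutant regions, 35.4% lay at promoters and 50.1% overlapped wild-type H3K4me3. Median lengths were 333 bases for lost, 365 for gained, 665 for kept wild-type and 1071.5 for kept mutant regions. The shares were not adjusted for length, and a longer region has more bases that can overlap.

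Most lost and gained regions had no H3K27ac in either genotype, 84.0% and 81.7%. At 171 of 3299 lost regions (5.18%, interval 4.45% to 6.00%) H3K27ac was found in the mutant alone, and at 40 (1.21%, 0.868% to 1.65%) in wild type alone. Kept wild-type regions had 6.42% and 2.22%, so an excess of mutant acetylation was also present where H3K27me3 remained. At gained regions the shares were 2.75% for the mutant alone and 2.78% for wild type alone. Among the 52 strong losses (−log10 p of at least 20, of 5463 wild-type regions that strong) 8 had H3K27ac in the mutant alone and 2 in wild type alone. Among the 221 strong gains (of 6773) the counts were 3 and 14. Most strong changes, 37 of the 52 losses and 184 of the 221 gains, had no H3K27ac in either genotype.

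The strongest lost region lay in an intron of Iqch (chr9:63406836-63411116, fold enrichment 9.99 in the authors' list). The fifth and sixth strongest both lay in Gli2, at chr1:120937428-120943314, 6.60 kb from a TSS, and at chr1:120807404-120815482, 63.7 kb from a TSS. In the latter, H3K27ac covered 1.30 kb in wild type against 4.34 kb in the mutant. The other 5 of the 8 strongest losses lay near Rtp4 (2 regions), Enpp6, Efnb2 and Gm5670, 13.6 kb or farther from a TSS, and held no H3K27ac in either genotype. The strongest gained regions lay near Epha7, an ephrin receptor gene (chr4:28898103-28898762, 158 kb from the TSS), inside Dst, at the promoter of Elavl2, which encodes a neuronal RNA-binding protein (chr4:91037452-91037981), and over a TSS of Plagl1 (chr10:12831172-12835490). The region at Plagl1 was 4.32 kb long, and H3K27ac within it covered 1.73 kb in wild type against 1.13 kb in the mutant.

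At promoters the mark was mostly common to both genotypes. Of 21275 protein-coding genes, 3962 had a region within 1 kb of a TSS in both genotypes, 95 in wild type alone (0.447% of all genes, and 2.03% of the 4684 with H3K27me3 in either) and 627 in the mutant alone (2.95% and 13.4%). Most promoters marked in 1 genotype alone were acetylated: H3K27ac was present in wild type at 81.8% of those marked in the mutant alone (interval 78.6% to 84.8%) and at 71.6% of those marked in wild type alone (61.4% to 80.4%), with intervals that overlap. The shares were 59.1% of those marked in both (57.5% to 60.6%) and 54.8% of those marked in neither. In the mutant the shares were 85.6%, 72.6%, 66.3% and 55.4% in the same order. H3K4me3 was present in wild type at 91.2% of the promoters marked in the mutant alone and at 94.0% of those marked in both. With the mutant list cut to the wild-type bases, 623 promoters were marked in wild type alone and 99 in the mutant alone.

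Genes were then compared by the length of H3K27me3 within 5 kb of their TSSs. A gene was called where this length differed by at least 1.5-fold and 1 kb. With the full lists, 649 genes had more in the mutant (3.05% of all genes, 11.3% of the 5737 with H3K27me3 in either genotype) and 28 had less (0.132% and 0.488%). With the mutant list cut, 169 had more (0.794%, and 3.42% of 4948) and 194 had less (0.912% and 3.92%). With both lists cut to 12.7 Mb, 158 had more (0.743%, and 7.94% of 1991) and 376 less (1.77% and 18.9%). The balance of directions therefore depended on how the lists were cut, and it leaned to less also with both lists at 12.7 Mb. A shorter mutant list can only shorten the mutant lengths, so each of the 28 genes with less remains called after the cut, and the 169 with more are all among the 649. These 28 and 169 genes, in 27 and 156 separate loci, are the calls made both with the full lists and after the cut. With both lists cut to 12.7 Mb, 3 of the 28 (Gli2, Gas1 and 1700112E06Rik) and 15 of the 169 remained called. Among the 169, Sgk3 (−1.33 kb) and Cnr1 (−1.53 kb) were then called less.

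**Figure D2:**
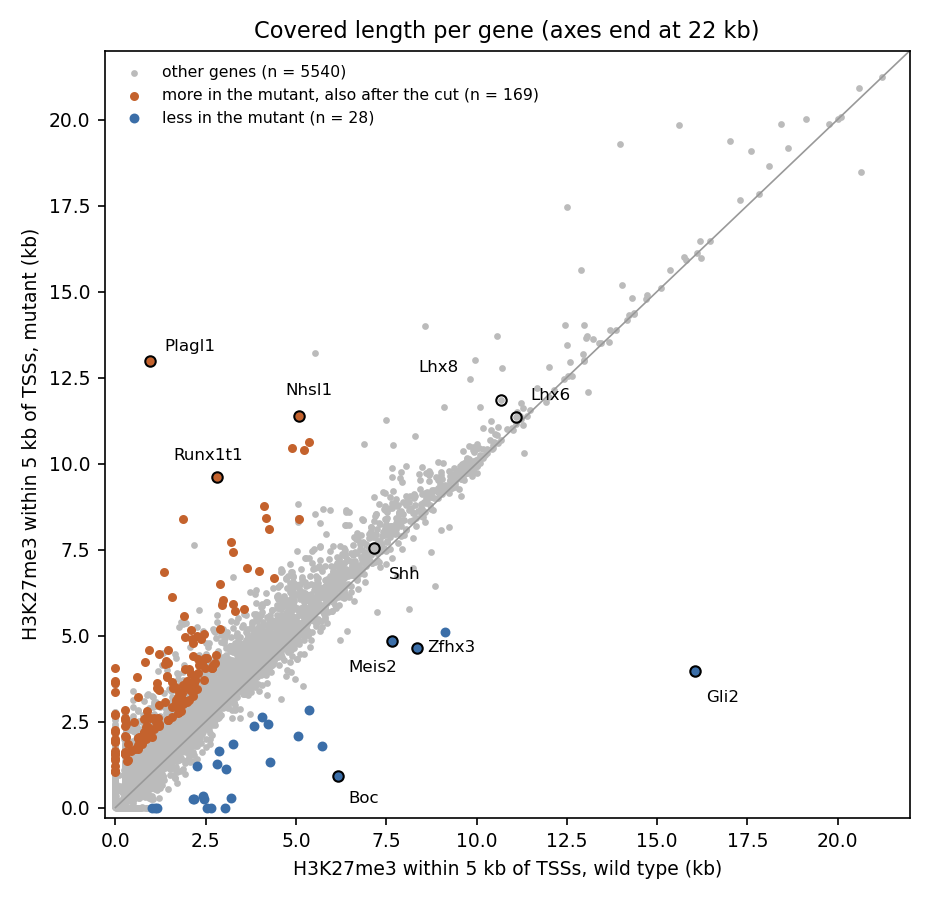
Length of H3K27me3 within 5 kb of a gene's TSSs in wild type (x axis, kb) and the mutant (y axis, kb), 1 point per gene with H3K27me3 in either genotype; 7 genes lie beyond the axes. Most genes follow the diagonal, Gli2 (16.0 and 3.96 kb) and Boc (6.16 and 0.918 kb) lie far below it, and Plagl1 (0.942 and 13.0 kb) lies far above it.

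The largest fall was at Gli2, the transcriptional effector of Sonic hedgehog (SHH) signalling (minus strand, chr1:120730709-120950196). H3K27me3 within 5 kb of its TSSs covered 16.0 kb in wild type against 3.96 kb in the mutant, and 2.47 kb after the cut. Over the whole gene with 5 kb on each side it covered 42.0 kb and 3.96 kb, while H3K27ac covered 10.4 kb and 29.1 kb. Its strongest wild-type region had a fold of 13.0, above 97.5% of the wild-type list, and its strongest mutant region a fold of 6.90, above 82.1% of the mutant list. The next fall was at Boc, an SHH co-receptor (chr16:44485158-44559010), with 6.16 kb in wild type against 0.918 kb in the mutant. H3K27ac over the whole Boc gene covered 11.3 kb and 31.7 kb.

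Other members of the SHH pathway went both ways. Of 17 members, 14 of them with the mark, 3 were called less and 3 more with the full lists, beside 0.488% less and 11.3% more among all genes with the mark. After the cut 4 were called less and none more, beside 3.92% and 3.42%. The third member called less was Gas1, a further SHH co-receptor, with 3.84 and 2.36 kb. Scube2, which helps release the ligand, had 8.12 and 5.78 kb and was called after the cut. Rises were called for Ptch1, the SHH receptor (1.86 and 5.35 kb), Hhip, a ligand-binding antagonist (2.27 and 5.25 kb), and Gli3, the main repressor form (2.93 and 4.82 kb), none of them after the cut (2.77, 3.23 and 3.71 kb). At Gli3, H3K27ac also covered more in the mutant, 2.66 and 6.28 kb. Shh itself had 7.17 and 7.55 kb of H3K27me3, while its H3K27ac covered 3.002 and 0.498 kb. The transducer Smo, Sufu and Disp2 had no H3K27me3 in either genotype. Cdon had 3.32 and 3.44 kb, Gli1 2.24 and 2.42 kb, Foxa2 11.02 and 10.97 kb, Scube1 1.31 and 0.922 kb, and Kif7 0 and 0.251 kb. The median change among the 14 members with the mark was 0.148 kb, against 0.386 kb among all genes with it.

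**Figure D3:**
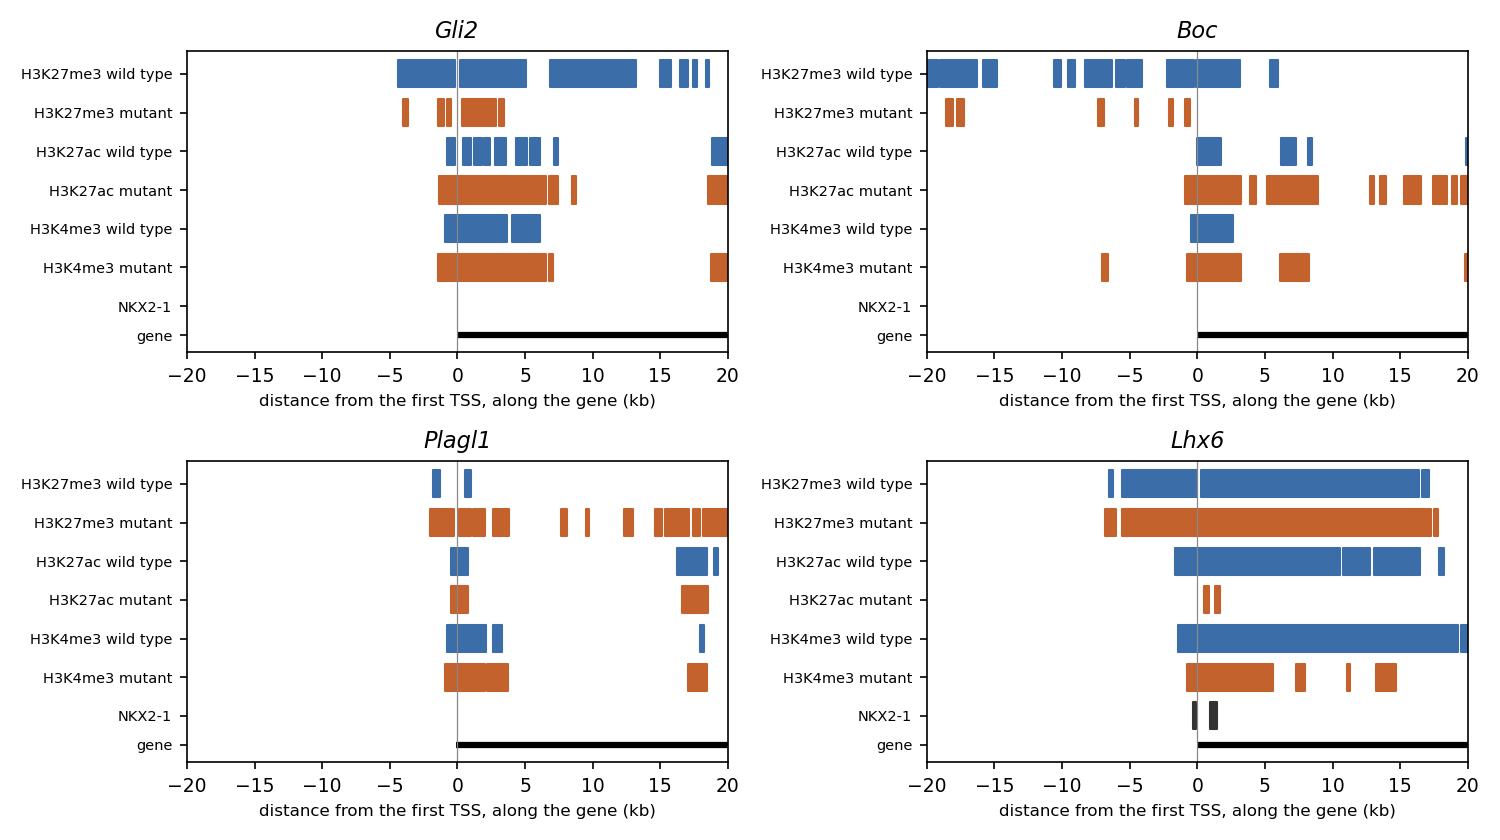
Regions of H3K27me3, H3K27ac and H3K4me3 in wild type (blue) and the mutant (orange), and NKX2-1 peaks (black), by distance from the first TSS along the gene (x axis, kb). H3K27me3 around Gli2 and Boc is broken up in the mutant while H3K27ac is longer, H3K27me3 spreads around Plagl1, and at Lhx6 the H3K27me3 remains while H3K27ac covers 0.781 kb.

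Further falls included 2 transcription factor genes of neighbouring ventral territories, while most genes of that list had longer H3K27me3 in the mutant. Of 28 genes of the lateral and caudal ganglionic eminences and the striatum, 27 of them with the mark, 2 were called less (beside 0.488% of all genes with it): Zfhx3, a homeodomain zinc finger factor (8.34 and 4.63 kb), and Meis2, a TALE homeodomain factor of the striatal lineage (7.66 and 4.85 kb). H3K27ac over the whole gene covered 24.3 and 39.2 kb at Zfhx3 and 33.4 and 52.4 kb at Meis2. Tshz1, a zinc finger factor of the lateral eminence, was called more (3.19 and 5.41 kb), and after the cut 4 genes were called less (beside 3.92%), with Foxp1 and Tle4 added, and none more. Foxp1, a forkhead factor gene of striatal neurons, had 4.70 kb in wild type, 6.05 kb in the full mutant list and 1.67 kb after the cut, so its direction depended on the cut. Foxp4 had 5.20 and 3.53 kb of H3K27me3 with 1.19 and 4.07 kb of H3K27ac and was not called. With the full lists, H3K27me3 was longer in the mutant at 20 genes of this list and shorter at 7. The median change among its members with the mark was 0.271 kb, against 0.386 kb among all genes with it. H3K27ac near the TSSs of this whole list summed to 98.8 kb in wild type against 150 kb in the mutant. The other large falls were at Rxrg, a retinoid X receptor gene (5.06 and 2.07 kb), Lrig1, which encodes a restrainer of growth factor receptors (4.28 and 1.33 kb), Pik3r1, a regulatory subunit of PI3-kinase (3.21 and 0.270 kb), Lrrn2 (5.71 and 1.79 kb), 1700112E06Rik (9.12 and 5.09 kb), and 1110051M20Rik, Gm16508 and Itm2b, which had 3.04, 2.65 and 2.52 kb in wild type and none in the mutant. At 1700112E06Rik H3K27ac covered 0 and 3.71 kb.

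The 28 genes with less H3K27me3 mostly had longer active marks in the mutant. H3K27ac near their TSSs was longer in 22 and shorter in 3, with a mean of 3.36 kb in wild type against 4.50 kb in the mutant. It was at least 1 kb longer in 12 of 28 (42.9%), against 5.53% of all genes with H3K27me3. All genes with H3K27me3 had shorter H3K27ac, with means of 1.56 and 1.72 kb, so a limit of 1 kb is not the same relative change. The means rose 1.34-fold for the 28 genes and 1.10-fold for all genes with H3K27me3. Atxn1 and 5033430I15Rik, both among the 12, had the same H3K27ac lengths (4.21 and 5.72 kb). H3K4me3 was longer in 25 and shorter in none, but it was also longer in 85.2% of all genes with H3K27me3. It was at least 1 kb longer in 12 (42.9%), against 7.06%. For 17 of the 28 genes (60.7%) an NKX2-1 peak was found 50 kb or less from a TSS, against 30.9% of all genes with H3K27me3. Of the 194 genes called less after the cut, which include the 28, 33 (17.0%) had H3K27ac at least 1 kb longer. An NKX2-1 peak lay within 50 kb of 83 of them (42.8%). Among the 169 genes with more, H3K27ac was longer in 92 (54.4%, against 52.7% of all genes with H3K27me3) and shorter in 62 (36.7%, against 23.7%). It was at least 1 kb longer in 8 (4.73%, against 5.53%) and at least 1 kb shorter in 11 (6.51%, against 2.20%), and 54 (32.0%) had an NKX2-1 peak within 50 kb.

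**Figure D4:**
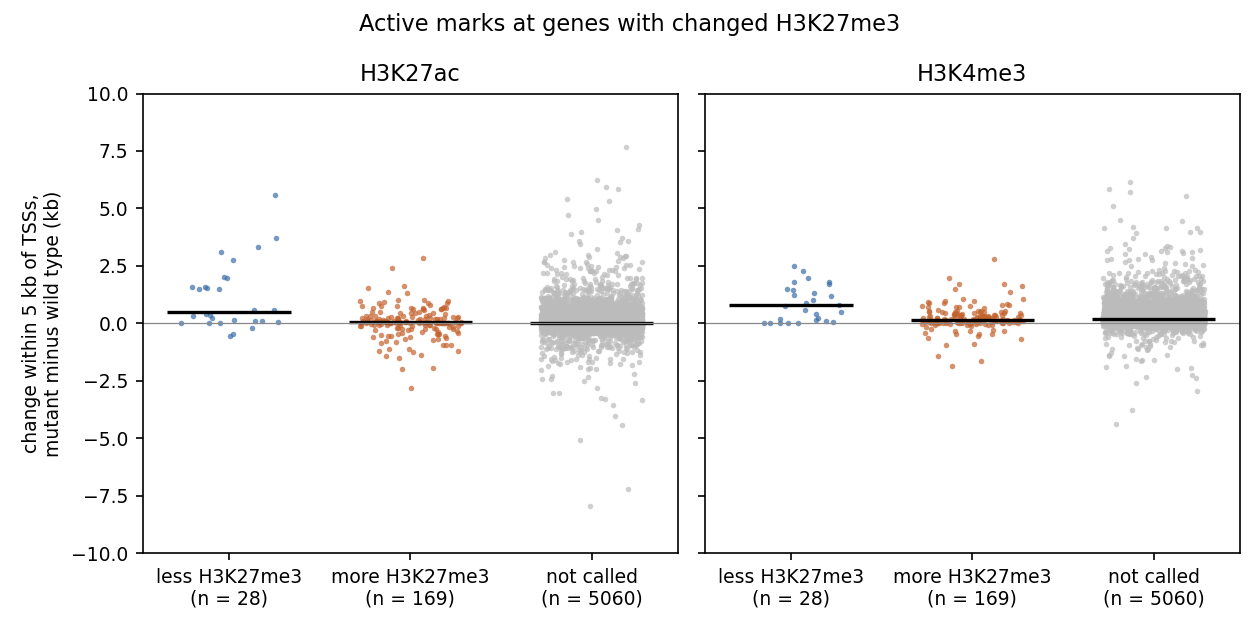
Change of H3K27ac (left) and H3K4me3 (right) within 5 kb of TSSs, mutant minus wild type (y axis, kb), for genes called with less H3K27me3, for those called with more also after the cut, and for genes with H3K27me3 that were not called. Each point is a gene and each bar a median: in kb, 0.49, 0.04 and 0.02 (H3K27ac) and 0.78, 0.14 and 0.19 (H3K4me3).

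The largest rise was at Plagl1, an imprinted zinc finger gene (chr10:12810497-12851500), from 0.942 to 13.0 kb, with 8.71 kb left after the cut. Its strongest mutant region had a fold of 8.01, above 86.4% of the mutant list. Other large rises that were called also after the cut were at Runx1t1, a transcriptional corepressor gene (2.81 and 9.61 kb), Nhsl1 (5.09 and 11.4 kb), Zfp800 (4.89 and 10.4 kb), Fbxw4 (5.35 and 10.6 kb), Hs3st1, a heparan sulfate sulfotransferase gene (5.21 and 10.4 kb), and Gm10797 (1.88 and 8.38 kb). Nhsl1 and Fbxw4 were among 15 genes called more with the full lists, after the cut and with both lists cut to 12.7 Mb. Tle2, a Groucho corepressor gene, had 5.54 and 13.2 kb, and Fgfr2, a fibroblast growth factor receptor gene, 2.18 and 7.63 kb, but neither was called after the cut (7.81 and 2.57 kb). Pcdhgc5, in the clustered protocadherins, had 16.7 and 24.8 kb, below the fold for a call.

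At the genes that define the MGE, H3K27me3 was already long in wild type. Within 5 kb of its TSS, Nkx2-1 had 7.79 kb of H3K27me3 in wild type against 6.74 kb in the mutant, lengths that include the stretch of the last exon without marks in the mutant. Lhx6 had 11.1 kb in wild type against 11.3 kb in the mutant, which is the whole window, while its H3K27ac covered 7.99 and 0.781 kb. Lhx8 had 10.7 and 11.8 kb, with H3K27ac at 9.05 and 1.11 kb. The strongest regions at Lhx6 had folds of 10.3 and 18.8 in the wild-type and mutant lists, and those at Lhx8 14.1 and 19.1, in lists whose mean folds, weighted by length, were 8.27 and 9.19. Each list has its own scale, so these folds are not a measured change. By rank, the strongest region at Lhx6 lay above 93.5% of the wild-type list and above 99.6% of the mutant list. At Lhx8 the ranks were 98.6% and 99.6%.

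Of 34 MGE transcription factor genes, all with the mark, 5 (14.7%) were called more and none less with the full lists, a share near the 11.3% of all genes with the mark. After the cut 2 were called more and 1 less, beside 3.42% more and 3.92% less among all genes with the mark. In 21 of the 34, Lhx6 and Lhx8 included, wild-type H3K27me3 already filled so much of the window that a 1.5-fold rise could not occur. The 5 were Sox6, which directs interneuron positioning (8.57 and 13.99 kb), Lmo3, a LIM-only cofactor gene (1.33 and 6.84 kb), Maf, a factor of somatostatin interneurons (2.102 and 5.18 kb), Tcf12, an E protein gene (0.308 and 2.04 kb), and Cux2 (0.853 and 2.44 kb). Lmo3 and Maf remained called after the cut, Sox6 had 10.96 kb then, and Cux2 had none. Over the whole Sox6 gene H3K27me3 covered 9.38 and 26.5 kb and H3K27ac 41.5 and 25.9 kb. The single fall after the cut was at Zeb2, with 2.22 kb in wild type, 1.30 kb in the full mutant list and none after the cut. Of 30 interneuron genes, 26 of them with the mark, 4 were called more (15.4% of the 26, near the 11.3% of all genes with the mark): Erbb4, the neuregulin receptor of migrating interneurons (2.88 and 6.51 kb), Cxcr4, their chemokine receptor (2.80 and 4.92 kb), Epha5 and Cntnap2. Erbb4 and Epha5 remained called after the cut, when 1 gene, Nrp1, was called less (2.82 kb in wild type, 3.61 kb in the full mutant list and none after the cut). These counts stand beside the same 3.42% more and 3.92% less. Of 11 cholinergic neuron genes, all with the mark, none was called, beside 11.3% more and 0.488% less among all genes with it. In 8 of the 11 wild-type H3K27me3 left no room for a 1.5-fold rise. The median changes among the members with the mark were 0.69 kb for MGE factors, 0.73 kb for interneuron genes and 0.73 kb for cholinergic genes, against 0.39 kb for all genes with it. Relative to wild type, however, the summed lengths in the mutant were 1.13, 1.23 and 1.08 times as long, against 1.20 times for all genes.

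**Figure D5:**
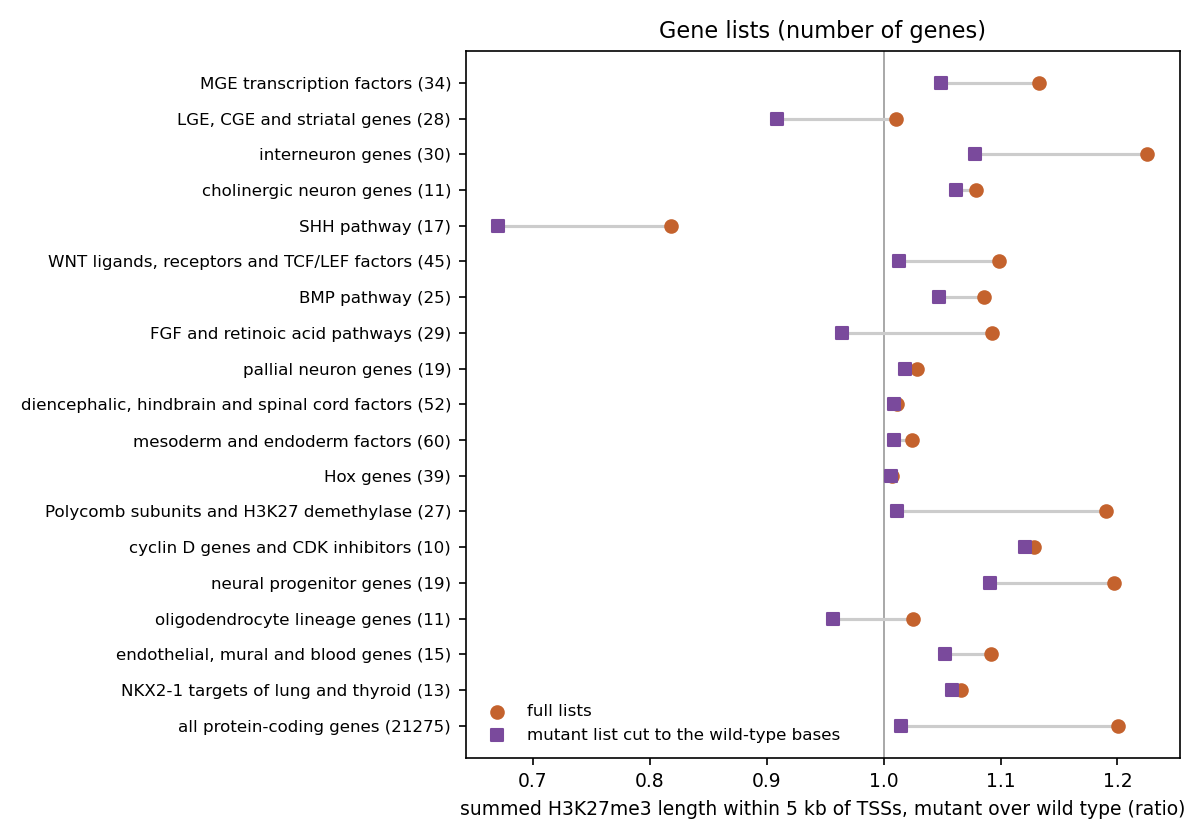
Summed H3K27me3 length within 5 kb of TSSs, mutant over wild type (x axis, ratio), for gene lists with at least 10 kb in wild type, with the full lists (circles) and with the mutant list cut to the wild-type bases (squares). All genes together are at 1.20 and 1.02, the SHH pathway is at 0.819 and 0.670, and Hox genes are at 1.01 in both. The SHH sum goes from 66.3 kb (wild type) to 54.2 kb (full mutant list), while Gli2 alone changes by −12.1 kb. The full-list SHH ratio thus rests on Gli2 and is not shared by the pathway. After the cut the sum is 44.4 kb and Gli2 changes by −13.6 kb, so other members add to that fall.

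Among classical Polycomb targets of other regions and lineages almost no gene was called, but most had no room for a rise. Wild-type H3K27me3 left no room for a 1.5-fold rise at 39 of 39 Hox genes, 46 of 52 factors of diencephalon, hindbrain and spinal cord, 41 of 60 mesoderm and endoderm factors and 16 of 19 pallial neuron genes, so these counts bear on falls only. Of 39 Hox genes, all marked in both genotypes, none was called less, and their summed length was 496 kb in wild type against 499 kb in the mutant. Of 52 factors of diencephalon, hindbrain and spinal cord none was called (548 and 554 kb). Of 60 mesoderm and endoderm factors 1 was called more, Eya1 (2.002 and 3.62 kb). Of 19 pallial neuron genes none was called (198 and 203 kb), including Eomes (9.75 and 10.1 kb) and Neurod1 (8.30 and 9.07 kb). H3K27ac near TSSs was found at 7 of these 19 pallial genes in wild type against 11 in the mutant, with sums of 17.9 and 28.4 kb.

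With the full lists, signalling pathways outside SHH had shares called more near that of all genes with the mark. The counts after the cut given below stand beside 3.42% more and 3.92% less among all genes with the mark. Of 45 WNT pathway genes 5 were called more (11.4% of the 44 with the mark, beside 11.3% of all genes with it) and none less (Fzd4, Rspo3, Fzd1, Sfrp2 and Fzd3), and the receptor genes Fzd4 (2.27 and 4.98 kb) and Fzd1 (1.38 and 3.07 kb) remained after the cut, when Wnt8a was called less. Of 25 BMP pathway genes the receptor gene Bmpr1b (2.14 and 3.24 kb) and the inhibitory Smad7 (0 and 1.99 kb) were called more, 9.52% of the 21 with the mark, also after the cut. Of 29 FGF and retinoic acid genes 3 (11.5% of the 26 with the mark) were called more (Fgfr2, Fgfr3 and Spry2), none of them after the cut, and 1 less (Rxrg). Among 10 cyclin D and CDK inhibitor genes, Cdkn1c, which encodes the imprinted inhibitor p57, was called more with and without the cut (3.24 and 5.91 kb). It was 14.3% of the 7 with the mark. Of 19 neural progenitor genes 3 were called more, 25% of the 12 with the mark. They were Sox2 (4.59 and 6.93 kb), the Notch ligand gene Dll1 (0 and 1.84 kb) and Prom1 (0.841 and 2.62 kb), of which Prom1 remained after the cut. Of 27 genes for Polycomb subunits and the H3K27 demethylase, Pcgf5 and Cbx7 were called more (16.7% of the 12 with the mark) and neither after the cut.

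Among markers of other cell types that the dissection could hold, 1 gene per list was called more and none less, beside 11.3% and 0.488% of all genes with the mark. Of 11 oligodendrocyte lineage genes Mbp was called more (0 and 1.37 kb), 12.5% of the 8 with the mark. Of 15 endothelial, mural and blood genes it was Erg (2.80 and 4.42 kb), 16.7% of the 6 with the mark. Of 9 microglial genes it was P2ry12 (0 and 1.32 kb), 33.3% of the 3 with the mark. Erg remained called after the cut, when 3.42% of all genes with the mark were called more. H3K27ac was found near TSSs of 8 of the 11 oligodendrocyte lineage genes in both genotypes, of 2 of the 15 endothelial, mural and blood genes in wild type and 3 in the mutant, and of 4 and 3 of the 9 microglial genes. It summed to 26.3 and 26.0 kb over the oligodendrocyte lineage list. H3K27ac near the TSSs of the endothelial, mural and blood list summed to 5.29 kb in wild type against 5.71 kb in the mutant, and that of the microglial list to 1.05 and 1.62 kb. Their part in the other results was not tested. Of 13 lung and thyroid targets of NKX2-1 Tshr was called more (1.17 and 2.61 kb), 16.7% of the 6 with the mark, also after the cut. Of 16 housekeeping genes B2m was called more with the full lists (0 and 1.03 kb), 33.3% of the 3 with the mark, and not after the cut.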

How the data were processed

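H3K27me3 was profiled by chromatin immunoprecipitation and sequencing in 1 library per genotype, and samples were grouped by antibody and genotype. The submitters' processing notes name MACS2 2.1.0 and BWA 0.6.2, together with bcl2fastq 1.8.4 and CASAVA 1.8.2, and build mm9. Per the file headers, the authors called peaks in each library with MACS 2.1.0.20140616 (p-value limit 1.00e-05, input as control, no local background). Tags were extended to 250 bases and 1 was kept per position. The headers name a merged alignment and do not say what was merged. The deposited columns are the pileup (a signal), the −log10 p-value, and the fold enrichment, a ratio. In both H3K27me3 lists the deposited fold equalled the pileup plus 1 divided by 1 constant, so fold and −log10 p gave the same rank. The q-value column was not used.

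Overlaps and covered lengths were computed in Python 3.11.15 with pandas 2.3.3, numpy 2.4.6, pysam 0.24.0 and scipy 1.17.1, checked against bedtools 2.31.1 and tested on simulated data; figures used matplotlib 3.10.9. The GENCODE vM1 annotation of NCBIM37 gave 21275 protein-coding genes, after merging of shared symbols, with 43868 TSSs. Of 515 entries in 20 gene lists 509 matched. Shares have exact 95% intervals (Clopper-Pearson), which reflect counting error alone. Named were the 12 largest rises and falls that kept their direction after the cut, up to 5 members per list, the 6 longest domains, the 8 strongest lost and gained regions, Nkx2-1, Lhx6, Lhx8 and the SHH pathway genes; some results are not reported here. Other genes were named after their values were seen. The members and gene lists were chosen with earlier results of these data known. Input libraries were not analysed here.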

Additional observations from a re-analysis of the deposited data

Results flagged for a closer look

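Chromosome X, which was outside the comparison of chromosomes 1 to 19, held 321 H3K27me3 regions in wild type against 848 in the mutant, a ratio of 2.64, against 1.30 on chromosomes 1 to 19. It stood out as a signal in data that no comparison above used. The bases covered there were 279 kb and 630 kb, a ratio of 2.26. The other marks had 1.12 to 1.20 times as many regions on chromosome X in the mutant as in wild type. The sex of the embryos in each library is not given in the sources used here.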

How the results depend on the processing

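No paired analysis was possible because each genotype has 1 H3K27me3 library, and no replicate could be left out. Cutting the mutant list to the wild-type bases, by −log10 p or by fold (which gave identical results), moved lost regions to 38.8%, gained regions to 12.5%, the ratio of median domain lengths from 1.00 to 1.33 (1.325), promoters to 623 in wild type alone and 99 in the mutant alone, and genes to 169 more and 194 less. With both lists cut to 12.7 Mb these were 21.7%, 7.41%, 1.20, 308 and 74 promoters, and 158 and 376 genes. A −log10 p of at least 10 gave 13.3% lost, 41.1% gained and a ratio of covered bases of 1.30 (1.2966), and kept the counts of genes (713 more, 33 less) and promoters near those of the full lists. An overlap of at least 50% gave 19.9% and 54.5%, and counting regions within 1 kb as shared gave 10.02% and 31.3%. A 2-fold limit left 404 genes with more and 18 with less. Joining over 1 kb or not at all gave domain ratios of 0.971 and 0.982. A 10 kb gene window gave 784 and 42 genes. The cause of these shifts was not tested. Of 130 named genes, 114 kept their direction after the cut. This count is no test of stability, since the 12 largest rises and falls were named on condition that they kept it. A fall also cannot turn into a rise when only the mutant list is shortened. Among named genes called with the full lists, the change turned negative after the cut at Cux2 (−0.853 kb), Cxcr4 (−0.21 kb), Sfrp2 (−0.115 kb) and Cbx7 (−0.105 kb), and with both lists cut at Cbx7 (−1.17 kb) and Tshz1 (−0.005 kb). Among named genes that were not called it turned negative after the cut at Phf19, Pdgfra, Olig1 and Kcnj8 (−0.696 to −0.067 kb), and with both lists cut at Etv5 (−3.90 kb), Gli1 (−1.22 kb), Ache (−0.842 kb) and Olig1 (−0.101 kb). The strength limit of −log10 p of 20 and the equal sizes of 5 to 25 Mb were chosen after seeing the data. The peak lists hold regions above the caller's threshold, so weaker H3K27me3 could not be seen.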

Other observations

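Some H3K27me3 regions carried every signal of the series. Of 20931 wild-type regions 58, and of 27229 mutant regions 66, were overlapped by regions of all 10 peak lists, that is by all 4 marks in both genotypes and by peaks of NKX2-1 and LHX6. After the mutant list was cut to the wild-type bases, the mutant covered from 0.930 times (chromosome 11) to 1.13 times (chromosome 10) the wild-type bases of a chromosome, with 9 of 19 chromosomes above 1. The lung and thyroid list held Nkx2-9, a homeobox gene, whose H3K27me3 covered 9.24 kb in wild type against 9.15 kb in the mutant while H3K27ac near its TSS covered 0 and 5.42 kb and H3K4me3 2.07 and 7.17 kb. Among 10 genes with more H3K27me3 in the full lists the call turned to less after the cut, so the settings give no single direction for them.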
